A study of Mus musculus with 3 samples.

Results

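Ion channels are membrane proteins that let ions cross a bilayer down their electrochemical gradient. In lymphocytes, potassium channels are known for holding the membrane potential negative, which sustains calcium entry, anion channels for adjusting cell volume, and exchangers of the Clcn family for setting the ion content of endosomes and lysosomes. Channel proteins are assembled from pore-forming subunits, often together with auxiliary subunits that set their gating or delivery to the membrane.

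The genes described here were those whose symbols begin with Kcn and a further letter, with Trpc, Trpm or Trpv and a number, with Cacna, Cacnb or Cacng, with Scn and a number, or with Clcn, Clic, Ano and a number, Grin and a number, Lrrc8 or Piezo, together with Hvcn1. The rule used names only and found 144 of the 16129 listed genes. A further 57 RefSeq genes with such symbols, Piezo2, Trpv1 and Kcnn2 among them, were not analysed here. The rule also took in Trpc4ap, which encodes an adaptor protein named for its binding to a channel and no channel, so 143 of the 144 genes encode a channel, a channel-like protein or a subunit.

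The libraries came from type 2 innate lymphoid cells (ILC2s), lymphocytes that lack rearranged antigen receptors and secrete type 2 cytokines. They were sorted from digested lung tissue of mice labelled as wild type and treated in vivo with IL-33, an alarmin released by epithelium. All 3 libraries belong to this 1 group, which holds no untreated or other control cells, so the comparisons are between genes within a library. The labels used here leave out the dose, duration, strain, age and antibodies. They do not say whether the libraries stem from separate animals, so the SDs describe only the spread between these libraries, which may be technical. The p-values likewise apply to these 3 libraries only.

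Depth was 19948056, 19883728 and 19976129 estimated reads in replicates 1, 2 and 3. Levels are in TPM, a unit that corrects for transcript length and depth, and a gene was counted as detected at 1 TPM or more in every library. All 12 ILC2 markers checked were detected, with a median of 571 TPM. Markers of other cells were found too. The 10 macrophage markers analysed, 9 of them detected, summed to 402, 394 and 551 TPM in replicates 1, 2 and 3. Most of it was Chil3, whose mean of 375 ± 74.7 TPM was above that of 5 of the 12 ILC2 markers. Summed levels of the 8 epithelial, 7 T cell and 5 B cell markers were 54.9 to 60.3, 9.77 to 14.3 and 22.6 to 25.3 TPM. How much of a channel transcript came from such cells was not tested, and in a sorted population fewer cells that carry a transcript cannot be told apart from less of it per cell.

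A minority of the genes taken by the naming rule was detected. Of the 144 genes, 39 (27.1%) were detected, beside 67.3% of all listed genes. A mean of 10 TPM was reached by 26 (18.1%), beside 51.2% of all listed genes, and a mean of 100 TPM by 5 (3.47%), beside 10.3%. Each of the other 105 genes stayed below 1 TPM in all 3 libraries, and 64 genes had a mean below 0.1 TPM, so no gene was detected in some libraries and missed in others. In each library 27.1% of the channel genes reached 1 TPM, and that of the other listed genes averaged 69.0%, a difference of -41.9 ± 0.148 percentage points (SD, n = 3). The median log2(TPM + 1) of the channel genes was 0.18, 0.16 and 0.16 in replicates 1, 2 and 3, against 3.61, 3.64 and 3.65 for the other listed genes. That difference of -3.46 ± 0.028 kept its sign in 3 of 3 libraries, and its size was many times its SD. By an exact two-sided sign-flip permutation test its p was 0.25, the smallest value that 3 libraries allow, and 0.273 after Benjamini-Hochberg adjustment over the 12 contrasts computed. When only genes with a mean of 1 TPM or more were compared, the difference of medians shrank to -0.18, and with a pseudocount of 0.1 it was -5.69 over all genes.

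**Figure D1:**
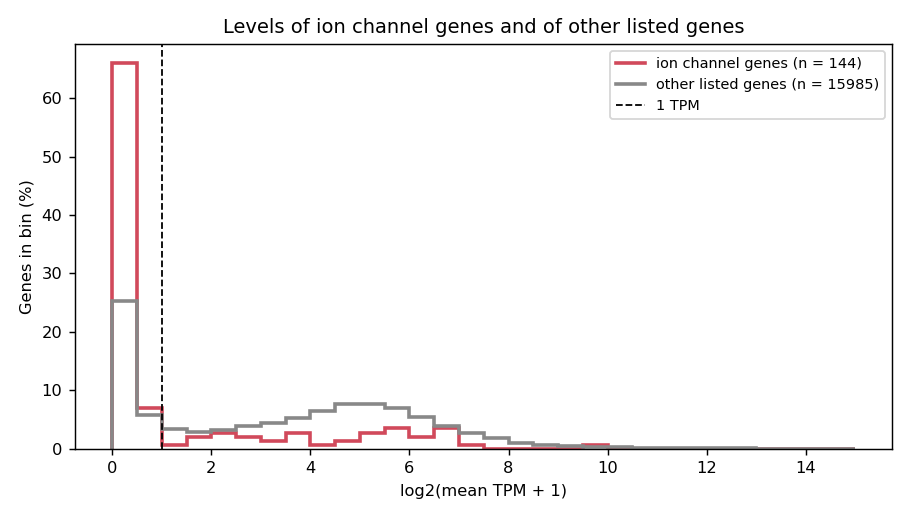
Share of genes (vertical axis, %) in bins of log2(mean TPM + 1) (horizontal axis) for the 144 ion channel genes and for all other listed genes, with the detection level of 1 TPM as a dashed line. The channel genes pile up near 0 and the detected ones spread over much of the range of the other genes.

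Values near the detection level were sparse. The lowest detected genes by mean were Cacna1a at 1.32, 1.38 and 1.45 TPM, Cacnb3 at 1.77, 1.51 and 2.46 TPM, and Kcnk7 at 1.98, 1.95 and 2.03 TPM in replicates 1, 2 and 3. Just below it lay Scn4b with a mean of 0.847 TPM, Ano7 with 0.787 TPM and Grin3b with 0.637 TPM. The share of genes detected varied between the ion classes. Anion channels and exchangers had 15 of 23 genes detected (65.2%), near the 67.3% of all listed genes, potassium channels 12 of 67, TRP cation channels 3 of 16, voltage-gated calcium channels 4 of 21, voltage-gated sodium channels 1 of 9 and NMDA receptor subunits 1 of 5, while the only proton channel and the only Piezo gene analysed were both detected. The mean log2(TPM + 1) of the anion class exceeded that of the potassium class by 2.33, 2.36 and 2.41 in replicates 1, 2 and 3, a difference of 2.37 ± 0.042 (exact sign-flip permutation p = 0.25, n = 3, the smallest possible). Its size depends on the pseudocount and was 3.75 with 0.1 in place of 1. Summed over their genes, the anion class reached 1273 ± 17.0 TPM and the potassium class 490.5 ± 11.3 TPM (SD, n = 3), out of 2301 ± 29.3 TPM for all 144 genes. The order of these sums rests on Clic1, without which the anion class summed to 483 ± 13.4 TPM, below the potassium class in every library.

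**Figure D2:**
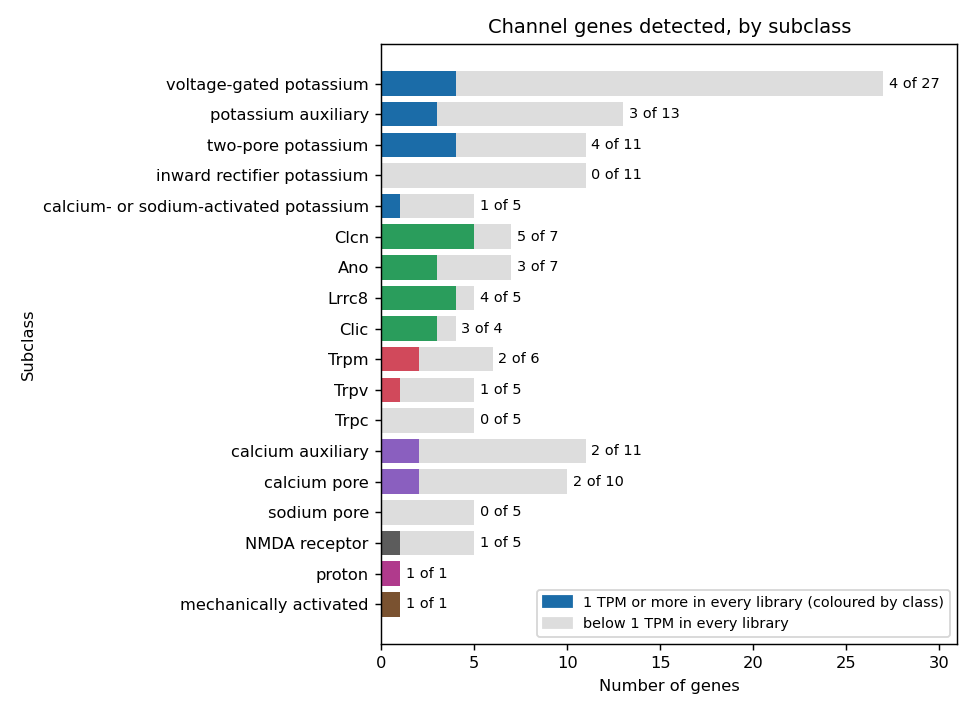
Number of channel genes (horizontal axis) in each subclass (vertical axis), coloured where a gene reached 1 TPM in every library and grey where it did not, with Trpc4ap and the sodium auxiliary subunits left out. The Clcn, Lrrc8 and Clic families had 5 of 7, 4 of 5 and 3 of 4 genes detected, beside 67.3% of all listed genes, and the inward rectifier, Trpc and sodium pore groups were at 0 of 11, 0 of 5 and 0 of 5.

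Potassium channels of the plasma membrane were led by the pair known from T lymphocytes. Kcnn4, which encodes the calcium-activated channel KCa3.1, stood at 93.5, 94.1 and 97.6 TPM in replicates 1, 2 and 3. Kcna3, which encodes the voltage-gated channel Kv1.3, stood at 87.5, 98.6 and 95.0 TPM. The libraries of the pair overlapped, Kcnn4 being the higher in 2 of 3, and their difference of 0.022 ± 0.082 in log2(TPM + 1) was smaller than the spread between libraries (exact two-sided sign-flip permutation p = 0.75). Kcnn4 (Entrez gene 16534) lies on chromosome 7 from 24369826 to 24385212 and Kcna3 (16491) on chromosome 3 from 107036162 to 107038129 in GRCm38.p6.

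The other detected pore-forming potassium genes covered the voltage-gated and two-pore subclasses. Kcnk5, which encodes the two-pore leak channel TASK-2, had 58.8, 57.1 and 58.3 TPM, the smallest relative spread among the genes at 10 TPM or more (coefficient of variation 1.49%). Kcnh6, of the ether-a-go-go related family, had 49.8, 53.4 and 47.6 TPM, and Kcnh4, of a neighbouring branch of the same family, had 11.6, 10.8 and 11.6 TPM. Kcnq5, of the Kv7 family, stood just below 10 TPM at 8.90, 9.26 and 9.84 TPM. Of 11 two-pore genes 4 were detected, the others being Kcnk6 (4.74 ± 0.468 TPM), Kcnk1 (4.55 ± 0.0656 TPM) and Kcnk7 (1.99 ± 0.0404 TPM). Of 27 voltage-gated genes 4 were detected, and the highest of the rest was Kcnc1 at 0.59 ± 0.0854 TPM. All 11 inward rectifier genes analysed were below 1 TPM, with a summed level of 0.567 ± 0.152 TPM. Among the calcium- or sodium-activated genes Kcnn4 alone of 5 was detected, and Kcnma1, the pore of the large-conductance channel, was at 0.0167 TPM.

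Some auxiliary or partner subunits were detected at levels that their pore genes did not reach, a pattern picked out after the values were seen. It does not hold for auxiliary genes in general. Of 13 potassium auxiliary genes 3 were detected (23.1%), beside 67.3% of all listed genes, and only these 3 are described here. The others had means of at most 0.47 TPM. The calcium channel beta subunits Cacnb1 and Cacnb3 went the other way, each with a lower mean than the pore gene Cacna1d. Kcnab2, a beta subunit of Kv1 channels with an oxidoreductase fold, was the highest potassium channel gene of all at 118, 121 and 125 TPM, and among the 4 Kv1 genes analysed Kcna3 was detected. Kcnmb4, the beta 4 subunit of the large-conductance channel, had 29.9, 29.4 and 34.5 TPM, while the pore gene Kcnma1 had at most 0.02 TPM in any library. Kcnip4, a calcium-binding partner of Kv4 channels, had 2.73, 2.82 and 2.59 TPM, while 0 of 3 Kv4 pore genes were detected and the highest, Kcnd1, had a mean of 0.317 TPM.

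Of the 5 NMDA receptor subunit genes analysed, Grin2d alone was detected. Grin2d, which encodes a regulatory glutamate-binding subunit, had 63.4, 67.7 and 68.5 TPM in replicates 1, 2 and 3. Grin1, the subunit that functional NMDA receptors are known to require, had 0.08, 0 and 0.05 TPM, which is 3, 0 and 2 estimated reads. The difference of 6.02 ± 0.105 in log2(TPM + 1) had the same sign in 3 of 3 libraries (exact sign-flip permutation p = 0.25, the smallest possible). Grin3b, Grin3a and Grin2a had means of 0.637, 0.11 and 0.00333 TPM. Grin2d (14814) lies on chromosome 7 from 45831883 to 45871194, and its span overlaps no other gene of the deposited table.

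The 250 bases before a RefSeq transcript start of these 4 genes (GRCm38.p6, each on the gene's own strand) are shown because the pairs Kcnn4 with Kcna3, alike in level, and Grin2d with Grin1, unlike in level, differ in CpG content in ways that do not follow their levels. Capitals mark CpG dinucleotides, which read the same on both strands. For Kcnn4 and Grin2d this start lies inside the annotated gene span. The windows are chr7:24370013-24370262 (plus strand) for Kcnn4, chr3:107035912-107036161 (plus strand) for Kcna3, chr7:45866682-45866931 (minus strand) for Grin2d and chr2:25319188-25319437 (minus strand) for Grin1.
Kcnn4: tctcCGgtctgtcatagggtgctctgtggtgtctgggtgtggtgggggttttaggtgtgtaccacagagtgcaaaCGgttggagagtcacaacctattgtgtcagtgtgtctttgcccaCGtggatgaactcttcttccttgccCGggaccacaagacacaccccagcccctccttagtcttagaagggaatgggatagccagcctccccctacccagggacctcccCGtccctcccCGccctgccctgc
Kcna3: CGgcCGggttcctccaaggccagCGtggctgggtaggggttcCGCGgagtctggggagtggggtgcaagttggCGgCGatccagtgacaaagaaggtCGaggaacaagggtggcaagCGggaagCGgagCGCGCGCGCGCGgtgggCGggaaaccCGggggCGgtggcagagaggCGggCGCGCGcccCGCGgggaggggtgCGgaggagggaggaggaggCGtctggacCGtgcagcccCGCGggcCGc
Grin2d: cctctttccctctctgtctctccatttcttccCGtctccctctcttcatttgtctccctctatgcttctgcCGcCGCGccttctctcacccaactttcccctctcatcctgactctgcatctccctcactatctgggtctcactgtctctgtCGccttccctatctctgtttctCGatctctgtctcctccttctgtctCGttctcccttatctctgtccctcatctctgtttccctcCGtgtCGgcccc
Grin1: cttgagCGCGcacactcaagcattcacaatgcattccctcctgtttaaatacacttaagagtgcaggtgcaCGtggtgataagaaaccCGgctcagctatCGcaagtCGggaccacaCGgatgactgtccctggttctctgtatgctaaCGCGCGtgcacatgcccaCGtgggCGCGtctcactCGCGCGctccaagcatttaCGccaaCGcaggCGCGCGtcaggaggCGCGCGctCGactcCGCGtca

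Kcnn4 had 6 CpG and Kcna3 31, so the observed number was 0.279 and 1.02 times that expected from base composition, although the transcripts were at like levels. Grin2d had 9 CpG (0.765 times the expected number) and Grin1, with hardly any reads, had 27 (1.26 times). Over all genes with a promoter sequence, CpG content went with detection. The ratio reached 0.6 in 57.6% of 33 detected channel genes and in 32.5% of 77 undetected ones, and in 69.3% of the 8760 detected and 30.1% of the 3892 undetected other genes, or 57.1% of all 12762. Of the 144 channel genes, 110 had a promoter sequence. The detected channel genes spanned a median of 37.0 kb of genome and the undetected ones 54.5 kb.

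Among the anion genes the chloride intracellular channel (Clic) family stood first. Clic proteins have the fold of glutathione transferases and exist in soluble and membrane-bound forms, and their role as channels in cells is debated. Clic1 had 819, 769 and 783 TPM in replicates 1, 2 and 3 and made up 34.4% of the summed TPM of the 144 genes. Clic4 had 135, 141 and 146 TPM. Clic1 exceeded Clic4 in every library, by 2.49 ± 0.094 in log2(TPM + 1), or 5.60-fold on that scale (exact sign-flip permutation p = 0.25, the smallest possible). On depth-scaled reads (CPM), which are not corrected for length, the difference was 0.64. Clic5 had a mean of 0.32 TPM. Clic3 had 2.06, 3.98 and 4.78 TPM, the widest spread among the detected genes. It lies wholly within the annotated span of Paxx, a DNA repair gene at 40.4 ± 3.73 TPM. The processing notes name RSEM, but the labels give no strandedness or annotation by which to judge how well overlapping genes were separated. Replicate 3 held 1.58 times the mean Clic3 level of the other libraries and 1.39 times their mean summed level of macrophage markers. The part of either in the Clic3 values was not tested.

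The Lrrc8 family encodes the volume-regulated anion channel, which opens when cells swell and is known to need Lrrc8a together with at least 1 other family member. Lrrc8a had 6.56, 5.91 and 6.69 TPM in replicates 1, 2 and 3. Of its partners, Lrrc8c had 76.9, 82.1 and 80.9 TPM, Lrrc8d had 23.8, 24.1 and 23.3 TPM, and Lrrc8b had 12.6, 14.2 and 14.3 TPM, each above Lrrc8a in every library. The fourth partner, Lrrc8e, had 0.26, 0.04 and 0.09 TPM. Lrrc8a was lower than the mean of its 4 partners in 3 of 3 libraries, with a difference of -0.87 ± 0.081 in log2(TPM + 1) (exact sign-flip permutation p = 0.25, the smallest possible). With a pseudocount of 0.1, which gives the near-absent Lrrc8e more weight, the difference was -0.42. The 3 highest members are neighbours on chromosome 5, where Lrrc8b, Lrrc8c and Lrrc8d occupy 400.0 kb from 105415206 to 105815215, while Lrrc8a lies on chromosome 2 and Lrrc8e on chromosome 8.

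Chloride-proton exchangers of intracellular membranes made up the detected Clcn genes. Clcn4 led with 63.5, 62.1 and 60.3 TPM. Clcn7, of lysosomes, had 23.3, 22.1 and 24.1 TPM, against 41.0, 43.9 and 43.9 TPM for Clcn3, of endosomes. Clcn7 was lower in 3 of 3 libraries, with a difference of -0.86 ± 0.086 in log2(TPM + 1) (exact sign-flip permutation p = 0.25, the smallest possible). Clcn6 and Clcn5 had means of 11.6 ± 0.756 and 6.71 ± 0.361 TPM. The genes of the plasma membrane channels, Clcn2 and Clcn1, had means of 0.533 and 0.0433 TPM. Of the anoctamins, Ano6, a calcium-activated phospholipid scramblase that also conducts ions, had 29.1, 31.1 and 33.7 TPM. Ano10 had 21.2, 20.6 and 22.0 TPM. Ano6 exceeded it by 0.53 ± 0.083 in log2(TPM + 1), and their libraries did not overlap. On CPM, not corrected for length, that difference was 1.64. Ano8 had a mean of 13.7 ± 0.471 TPM, and the calcium-activated chloride channel gene Ano1 had 0.117 TPM.

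**Figure D3:**
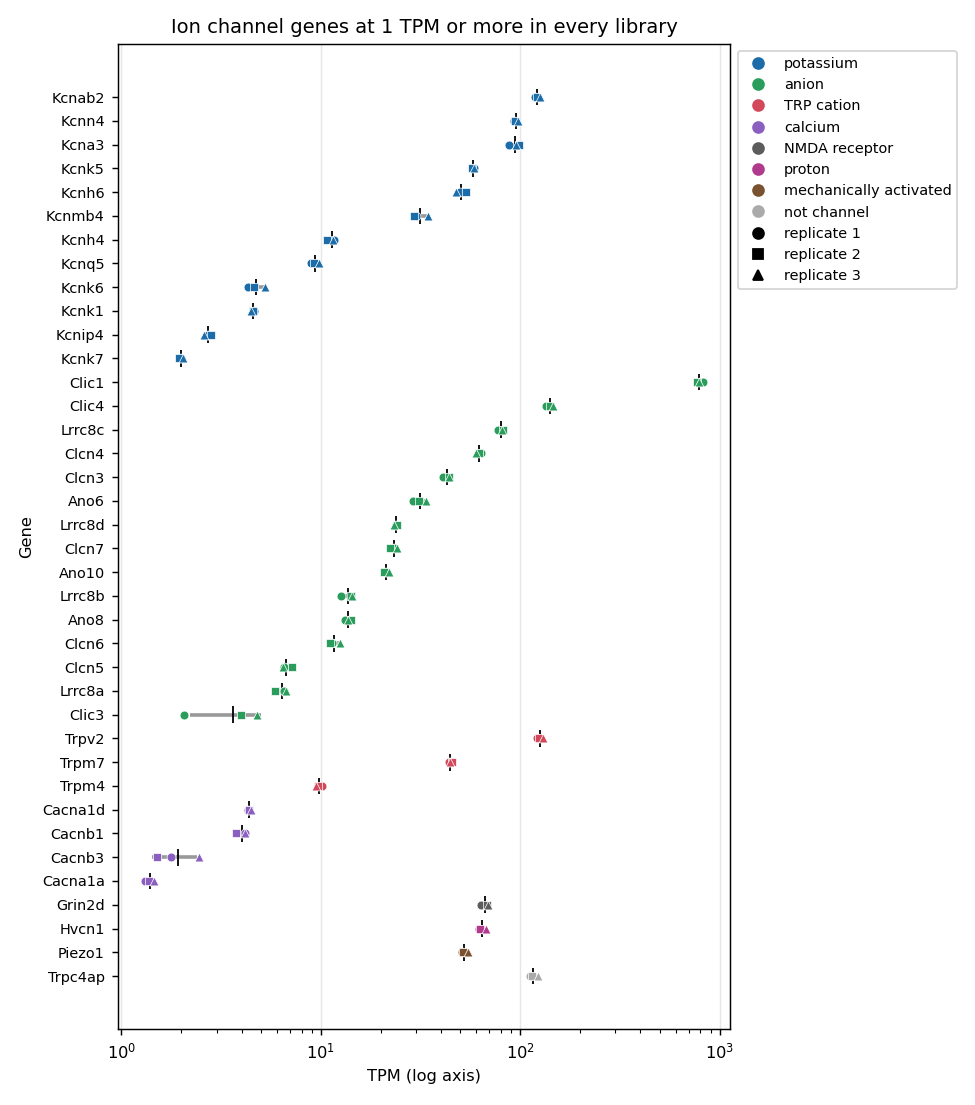
Level in TPM (horizontal log axis) of 38 of the 39 detected genes (vertical axis), coloured by ion class, with a symbol per library, a vertical tick at the mean and a grey bar of ± 1 SD over the 3 libraries. Clic1 stands apart near 791 TPM, and Clic3 and Cacnb3 have the widest spreads.

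TRP channels, cation channels opened by diverse chemical and physical cues, were represented by few genes. Trpv2, a calcium-permeable channel known from leukocytes, had 122, 124 and 129 TPM and was the third highest of the 144 genes. Trpv4 had 0.1, 0.09 and 0.35 TPM, or 3, 2 and 10 estimated reads, so that Trpv2 exceeded it by 6.74 ± 0.132 in log2(TPM + 1), in 3 of 3 libraries (exact sign-flip permutation p = 0.25, the smallest possible). Trpv5, Trpv6 and Trpv3 had means of 0.577, 0.0367 and 0.0133 TPM. Trpm7, a channel fused to a kinase and known for magnesium and zinc handling, had 43.7, 45.5 and 44.5 TPM. Trpm4, a calcium-activated channel for monovalent cations, had 10.1, 9.67 and 9.47 TPM, and Trpm7 exceeded it by 2.08 ± 0.065 in log2(TPM + 1), with TPM ratios of 4.33, 4.70 and 4.70 in replicates 1, 2 and 3. The remaining 4 Trpm genes, Trpm1, Trpm2, Trpm3 and Trpm6, had means of 0.313, 0.217, 0.153 and 0.0167 TPM. None of the 5 Trpc genes analysed was detected, the highest being Trpc1 at a mean of 0.297 TPM. Trpc4ap, which is no channel gene, had 112, 115 and 122 TPM.

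Hvcn1, the voltage-gated proton channel known for charge compensation during the oxidative burst of phagocytes and present in lymphocytes, had 62.1, 62.4 and 67.7 TPM. Piezo1, a channel opened by membrane tension, had 50.8, 51.5 and 55.0 TPM. Both were highest in replicate 3, by 1.09 and 1.07 times the mean of the other libraries, while the median of that ratio over the 39 detected genes was 1.04. Piezo1 overlaps Ctu2 (28.6 ± 1.22 TPM) by 1395 bases of annotated span, and Hvcn1 overlaps Tctn1 (6.65 ± 0.546 TPM) by 2803 bases.

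Of the 5 voltage-gated sodium pore genes 0 were detected, and the highest of them, Scn11a, had a mean of 0.507 TPM. Voltage-gated calcium channel genes were low. The beta subunit genes Cacnb1 and Cacnb3, whose products help deliver the pore to the membrane, had 4.03 ± 0.234 and 1.91 ± 0.491 TPM. Cacna1d, the pore of an L-type channel, had 4.29, 4.37 and 4.47 TPM, and Cacna1a, the pore of the P/Q-type channel, had the values near the detection level given above. The rest of the 10 pore genes were below 1 TPM, led by Cacna1s at a mean of 0.4 TPM. Cacna1d was above every beta gene in every library, and the 4 beta genes summed to 6.30 ± 0.627 TPM against 6.52 ± 0.182 TPM for the 10 pore genes. Per gene, the mean log2(TPM + 1) of the beta genes exceeded that of the pore genes by 0.61 ± 0.064, in 3 of 3 libraries, a difference that was 0.39 on FPKM, 0.42 on CPM and 1.47 with a pseudocount of 0.1. These levels carry a limit from the annotation. Cacnb1 overlaps Rpl19, a ribosomal protein gene at 2693 ± 113 TPM, by 1032 bases of annotated span, and Cacna1d overlaps Chdh (81.3 ± 0.901 TPM) and Dcp1a (25.4 ± 1.91 TPM). Without strand information, reads of such pairs cannot be told apart where their exons overlap. In all, 10 of the 39 detected genes overlap another gene of the table, among them Kcnk7 with Ehbp1l1 (145 ± 3.56 TPM) and Ano8 with Dda1 (77.1 ± 1.95 TPM). The share of overlapping genes among all listed genes was not computed, so whether the channel genes differ in this was not tested. Without these 10 the calcium class falls to 2 detected genes.

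The order of levels was partly resolved by the 3 libraries. Among the 26 genes at 10 TPM or more, 13 of 25 neighbouring pairs had library ranges that did not overlap. Clic1, Clic4 and Trpv2 were separated from each other in this way, while Trpv2, Kcnab2 and Trpc4ap, then Kcnn4 and Kcna3, then Grin2d, Hvcn1 and Clcn4, each formed runs of overlapping neighbours. The coefficient of variation of these 26 genes ran from 1.49% to 8.90%, with a median of 3.87%, and Kcnmb4, Ano6 and Kcna3 had the largest ranges. The median SD of log2(TPM + 1) was 0.0545 over the detected channel genes and 0.0613 over the other detected genes. In a chi-square comparison of rounded estimated reads, with Benjamini-Hochberg adjustment over all genes with a mean of 20 reads, the libraries differed beyond counting noise for 5 of 49 channel genes (10.2%), beside 12.0% of all 11274 genes compared. The 5 were Clic1, highest in replicate 1, Ano6, highest in replicate 3, and Kcnh6, Kcna3 and Kcna2, highest in replicate 2. The 49 genes were taken by reads and include some below the detection level. Kcna2 is such a gene, with 0.23, 0.39 and 0.16 TPM, or 28.0, 43.8 and 19.1 estimated reads, in replicates 1, 2 and 3. Without adjustment, p was under 0.05 for 12 of the 49 (24.5%), beside 24.4% of all genes compared.

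**Figure D4:**
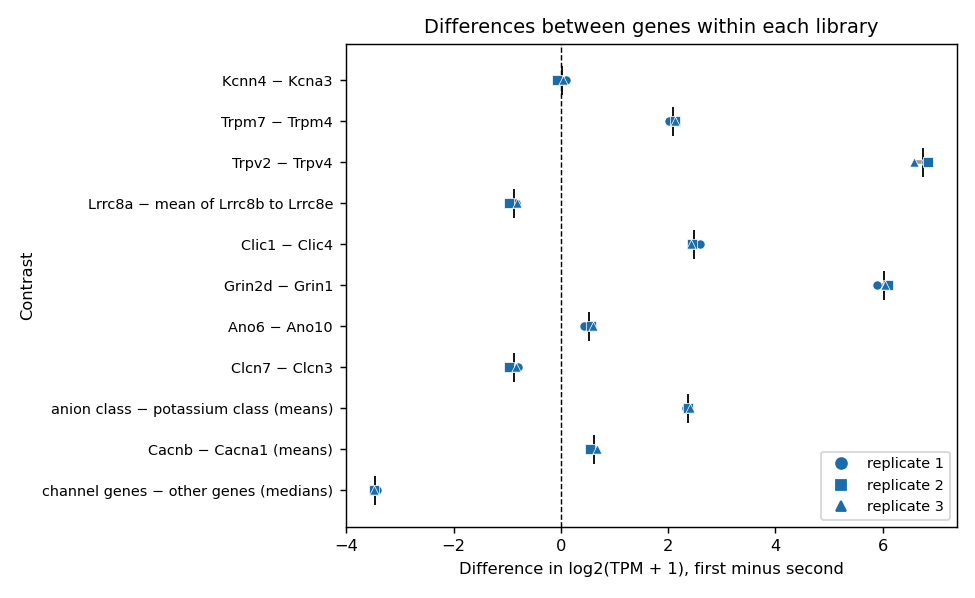
Difference in log2(TPM + 1) (horizontal axis) between the first and second gene or gene group of each contrast (vertical axis), with a symbol per library, a tick at the mean and a grey bar of ± 1 SD. Kcnn4 minus Kcna3 straddles 0, and each other contrast keeps 1 sign in the 3 libraries.

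Channels outside the naming rule and the pumps that supply ion gradients were listed for comparison, beside 67.3% of all listed genes detected. Of 53 genes of other channels and their regulators 30 were detected (56.6%), with a median of 8.72 TPM. They were led by Asic3, a proton-gated sodium channel subunit, with 271, 264 and 266 TPM, then by Vdac2, Vdac1 and Vdac3, the mitochondrial porins, with means of 243, 170.4 and 157 TPM, and by Stim1 and Tmc8 with 104 and 100.4 TPM. Stim1 encodes a calcium sensor of the endoplasmic reticulum that opens Orai channels and is no channel itself, and the same holds for Stim2 of the same list. The span of Asic3 overlaps Cdk5 (40.4 ± 0.938 TPM) by 4390 bases. The store-operated calcium channel genes Orai2, Orai3 and Orai1 had means of 92.8, 35.9 and 27.8 TPM. Of 27 pump and cotransporter genes 16 were detected (59.3%), among them Atp2a3, a calcium pump of the endoplasmic reticulum, at 299.9 ± 15.8 TPM. The kinases of cell volume regulation had 3 of 6 detected, Wnk1 (83.6 ± 4.50 TPM), Stk39 (72.0 ± 2.65 TPM) and Oxsr1 (36.1 ± 0.676 TPM).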

How the data were processed

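RNA sequencing libraries of sorted lung ILC2s, 3 of 1 group, were analysed. The build GRCm38.p6 and the tools RSEM 1.3.1 and Bowtie2 appear in the submitters' processing notes, which give no settings, and the labels name no annotation or strandedness. Per the file headers, the authors deposited expected counts, TPM, FPKM and normalised read counts per gene and library. The deposited TPM summed to 1000000 per library and was used for all levels. The deposited FPKM served as an alternative. The deposited normalised read counts, a depth-scaled signal, equalled the expected count rounded up and multiplied by a factor of 0.997 to 1.00 in every value above 0, within a relative tolerance of 1e-06, and were not used further.

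Logarithms are log2(TPM + 1), a scale on which the ratios of low genes come out too small. Contrasts are differences within a library, given as mean ± SD (n = 3), with an exact two-sided sign-flip permutation test. Of 13 contrasts, 12 could be computed, since Piezo2 was not analysed here. Expected counts were rounded before the chi-square comparison (scipy 1.17.1), which was tested on simulated data. Gene spans and promoter sequences are from RefSeq for GRCm38.p6, to which all 144 genes matched by Entrez ID. The members, lists and contrasts were chosen with earlier results of these data known. Named genes are those at 10 TPM or more, up to 3 of each subclass, contrast genes, genes nearest 1 TPM, the 3 with the largest range and the leading genes of each list. Some genes that this rule names are not reported here. Alternatives were a pseudocount of 0.1, FPKM or CPM, detection at 0.5 or 5 TPM, and leaving out each library.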

Additional observations from a re-analysis of the deposited data

How the results depend on the processing

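Of 78 recomputed contrast values, 77 kept their sign. The exception was Kcnn4 minus Kcna3, which ran from -0.014 to 0.066 when 1 library was left out and is smaller than its SD. The number of detected channel genes was 39 without any 1 library, 42 at 0.5 TPM, 30 at 5 TPM, 36 at 1 FPKM and 45 at 1 CPM. The percent detected, channel genes minus other listed genes, averaged -41.7 at 0.5 TPM, -37.7 at 5 TPM, -39.5 on FPKM and -36.3 on CPM. Leaving out detected channel genes that overlap another left 29, an alternative chosen after seeing the data. Undetected channel genes were not checked for overlap, so this count could only fall. Small classes moved more. The calcium class had 0 detected genes at 5 TPM, 2 at 1 FPKM, 7 at 1 CPM and 2 without overlapping genes. The sodium class had 2 at 0.5 TPM and 2 at 1 CPM. Without overlapping genes the proton and Piezo classes had 0, since Hvcn1 and Piezo1 each overlap a lower gene. CPM favours long transcripts. No paired analysis was possible because all libraries belong to 1 group. With 3 libraries no contrast can pass a threshold of 0.05, so these p-values say nothing about stability.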
